A study of Sus scrofa with 6 samples.

Results

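The small leucine-rich proteoglycans are secreted proteins of the connective tissue matrix, and 9 of their genes were followed here in pig aorta. They were biglycan (BGN), decorin (DCN), asporin (ASPN), lumican (LUM), fibromodulin (FMOD), PRELP, osteomodulin (OMD), osteoglycin (OGN) and podocan (PODN). Each was found by its symbol in the deposited gene table, which held 22861 genes, and all 9 passed the filter on low counts. RNA sequencing was done on abdominal aorta from a swine model of atherosclerosis. One group was WMS FH animals whose aorta carried atherosclerotic lesions, and the comparison group was WMS normal animals whose aorta was lesion free. WMS and FH are given as the labels spell them. RNA of 11 animals in each group was pooled into 3 samples, so p-values measure the spread between pools and not between animals. The labels give neither the animals in each pool nor their sex, age or diet. FH or normal status and lesion status cannot be told apart.

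These proteins share a core of leucine-rich repeats that binds collagen fibrils and sets their width and spacing. BGN and DCN carry chondroitin or dermatan sulfate chains, whereas LUM, FMOD and OMD belong to the branch that can carry keratan sulfate. In arteries they are made mainly by smooth muscle cells and adventitial fibroblasts. The sulfated chains bind apolipoprotein B, which has tied BGN to the retention of lipoproteins in the intima. Released BGN and DCN can also act as ligands of Toll-like receptors, and several members bind TGF-beta.

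Pools held between 4650176 counts, in lesion replicate 1, and 11442433 counts, in lesion replicate 3. Levels are given in CPM, the usual unit of read counts scaled to library size, after adjustment by the trimmed mean of M values. Smooth muscle, the main cell type of the aortic media, was evident in every pool: the summed level of 9 contractile markers ran from 40002 to 55218 CPM in lesion pools and from 83085 to 95583 CPM in lesion-free pools. The summed level of 10 macrophage markers ran from 1269 to 2226 CPM and from 159 to 282 CPM. In pooled bulk tissue, fewer cells of a type and less RNA per cell cannot be told apart. The part of these shifts in the results below was not tested.

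None of the 9 proteoglycan genes was called changed. A gene was called when its limma p-value, adjusted over all 11673 genes tested, was under 0.05. Across all those genes 0.968% were called higher and 0.0771% lower in lesion pools, so 0 of 9 members is close to the background. Among the members, the adjusted p ran from 0.282 for LUM to 0.883 for OMD. Without adjustment LUM alone passed the 0.05 threshold, as did 10.6% of all genes tested. Estimates were lower in lesion pools for 7 members and higher for LUM and OMD. The median log2 fold, lesion over lesion free, was -0.37 over the members and -0.002 over all genes.

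Lesion and lesion-free pools did not overlap in 2 of the members, LUM and DCN, which differed in opposite directions. LUM was higher in every lesion pool, as were 10.5% of all genes tested, and DCN was lower in every lesion pool, as were 8.97% of them. Both shares are near what 1 in 9 members gives.

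DCN, decorin, carries a single sulfated chain and is the member best known for binding TGF-beta. DCN stood at 564, 733 and 655 CPM in lesion replicates 1, 2 and 3, and at 1347, 875 and 781 CPM in lesion-free replicates 4, 5 and 6. The highest lesion pool lay just under the lowest lesion-free pool, and lesion-free replicate 4 stood well above the rest. The group means were 651 ± 84.6 and 1001 ± 303 CPM (SD, n = 3 each), a 1.51-fold lower estimate with a log2 fold of -0.59 (SE 0.28, limma adjusted p = 0.48). Its 95% interval, from -1.20 to 0.02, reached 0. Without lesion-free replicate 4 the log2 fold was -0.35, and without lesion-free replicate 6 it was -0.75.

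BGN, biglycan, is the closest relative of DCN and carries a pair of chains. BGN stood at 2869.8, 4303 and 8006 CPM in lesion replicates 1, 2 and 3. The lesion-free pools were closer together, at 8438, 6904 and 6365 CPM in replicates 4, 5 and 6. Lesion replicate 3 thus lay among the lesion-free pools, while the other lesion pools lay below all of them. Group means were 5059.6 ± 2650.1 and 7236 ± 1075 CPM (SD, n = 3 each). BGN was estimated 1.57-fold lower, with a log2 fold of -0.65 (SE 0.35, 95% interval -1.40 to 0.11, limma adjusted p = 0.54). That value was -0.29 without lesion replicate 1 and -1.04 without lesion replicate 3, so single lesion pools moved it by more than 1.5 times in either direction.

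ASPN, asporin, is related to both but bears a run of aspartates where they carry sulfated chains. Its levels were 185, 121 and 133 CPM in the lesion pools against 167, 184 and 167 CPM. Lesion replicate 1 was the highest of all pools and the other lesion pools were the lowest. The log2 fold was -0.27 (SE 0.26, limma adjusted p = 0.744), with a 95% interval from -0.83 to 0.29. It was -0.44 without lesion replicate 1 and -0.14 without lesion replicate 2.

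LUM, lumican, binds the same collagen fibrils as FMOD and is abundant in cornea, skin and artery. In lesion replicates 1, 2 and 3 it stood at 403, 185 and 180.0 CPM, against 125, 137 and 123 CPM in lesion-free replicates 4, 5 and 6. Every lesion pool was above every lesion-free pool, and lesion replicate 1 was far above the other lesion pools. Means were 256 ± 127 and 128 ± 7.52 CPM (SD, n = 3 each). The estimate was 1.86-fold higher, with a 95% interval from 1.17-fold to 2.96-fold before any adjustment and a log2 fold of 0.89 (SE 0.31, limma adjusted p = 0.282). Without lesion replicate 1 the log2 fold was 0.51, and the remaining groups were still apart.

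FMOD, fibromodulin, regulates the thickness of collagen fibrils and their cross-linking. FMOD levels in the lesion pools were 2256, 1991 and 3035 CPM, and those in the lesion-free pools were 2906, 2942 and 3415 CPM. Lesion replicate 3 overlapped the lesion-free range. The log2 fold was -0.37 (SE 0.28, 95% interval -0.96 to 0.22, limma adjusted p = 0.666). It was -0.24 without lesion replicate 2 and -0.54 without lesion replicate 3.

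PRELP, which links collagen to heparan sulfate of basement membranes, varied more between pools of 1 group than between groups. It stood at 169.5, 263 and 505 CPM in the lesion pools and at 242, 495 and 487 CPM in the lesion-free pools. Its standard error of 0.40 was the largest of the 9. The log2 fold of -0.46 (limma adjusted p = 0.711) became -0.08 without lesion replicate 1 and -0.87 without lesion replicate 3. Without lesion-free replicate 4, 5 or 6 it was -0.79, -0.29 and -0.29.

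OMD, osteomodulin, is an acidic keratan sulfate proteoglycan named from bone. OMD was the steadiest member, at 87.3, 95.2 and 85.8 CPM in lesion pools and 81.9, 73.5 and 89.0 CPM in lesion-free pools. Its log2 fold was 0.14 (SE 0.25, limma adjusted p = 0.883), and the 95% interval from -0.41 to 0.68 bounds the size of a difference these pools could hide. Leaving out lesion-free replicate 5 gave 0.067, leaving out lesion replicate 2 gave 0.088, and leaving out lesion-free replicate 6 gave 0.21.

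OGN, osteoglycin or mimecan, is found in the media of normal arteries. Its values of 179, 153 and 127 CPM in lesion replicates 1, 2 and 3 compare with 272, 173 and 132 CPM in lesion-free replicates 4, 5 and 6. The groups overlapped, and lesion replicate 3 was just below the lesion-free range. The log2 fold was -0.29 (SE 0.30, limma adjusted p = 0.768) and came to -0.005 without lesion-free replicate 4, the highest pool. It was -0.53 without lesion-free replicate 6, the lowest lesion-free pool, and -0.16 without lesion replicate 3.

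PODN, podocan, belongs to a more distant branch and is expressed in the vessel wall. It stood at 98.6, 222 and 195 CPM in lesion pools and at 252, 214 and 209.9 CPM in lesion-free pools. Lesion replicate 1 alone was far below the others. The log2 fold of -0.45 (SE 0.31, limma adjusted p = 0.632) was -0.10 without it and -0.68 without lesion replicate 2.

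**Figure D1:**
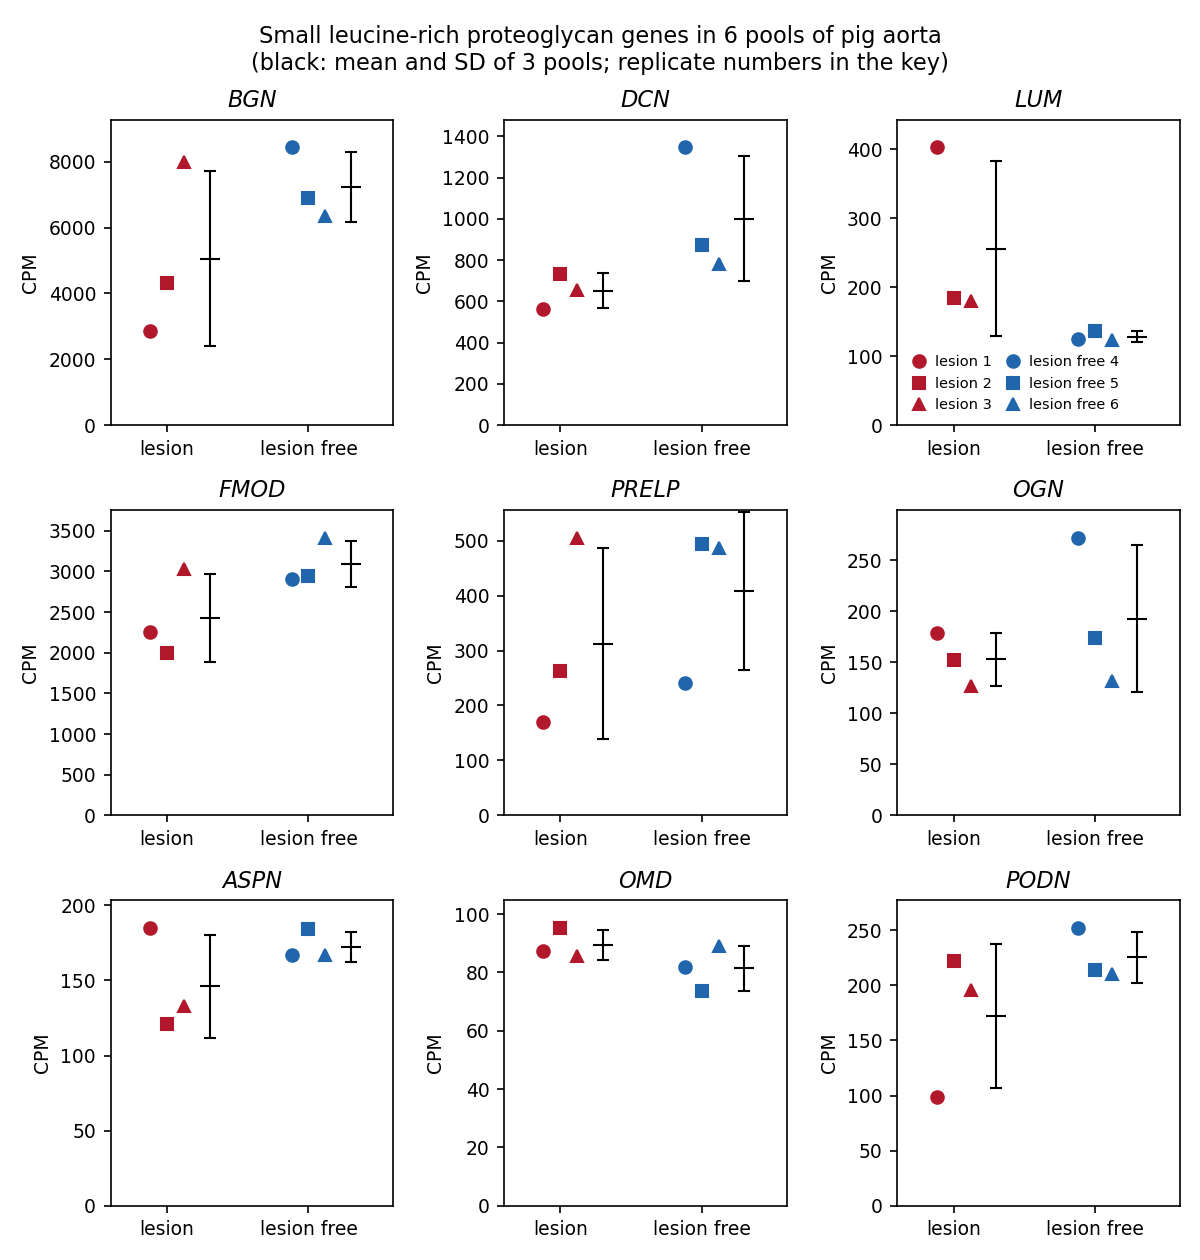
Level of each proteoglycan gene in CPM (y axis, starting at 0) in the 3 lesion pools (red) and the 3 lesion-free pools (blue), with the mean and SD of each group in black. LUM is the one gene with all lesion pools above, from 180.0 to 403 against 123 to 137 CPM, and DCN the one with all lesion pools below.

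**Figure D2:**
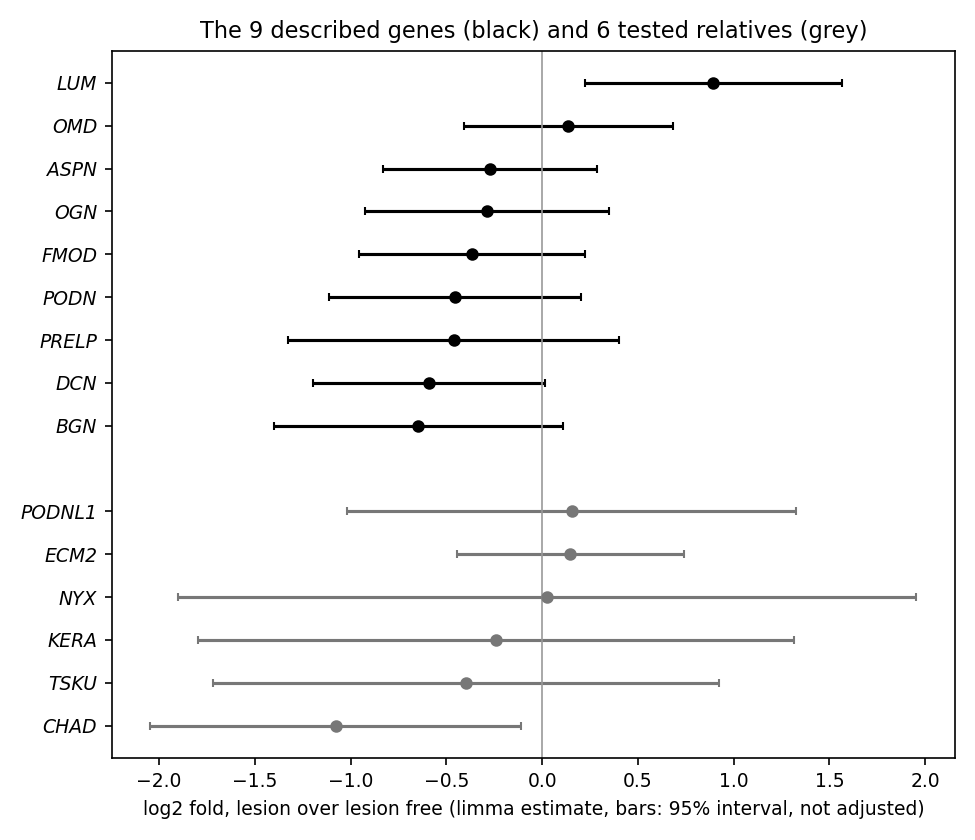
Estimated log2 fold of lesion over lesion free (x axis) with its unadjusted 95% interval for the 9 members (black) and 6 related genes (grey). The LUM interval, from 0.22 to 1.56, and that of the related gene CHAD are those that leave out 0.

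The smallest count of any member in any pool was 454, for OMD, which carries a counting error of 4.69%, and the largest was 87729, for BGN, with 0.338%. The standard errors of the log2 folds, from 0.25 to 0.40, are larger than these counting errors.

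The members did not move as 1 block within the lesion pools. In lesion replicate 1, relative to the lesion-free mean, BGN differed by -1.32, PRELP by -1.19 and PODN by -1.19 on the log2 scale, while LUM differed by 1.65 and ASPN and OMD by 0.10 each. The median over the 9 genes was -0.45, -0.41 and -0.02 in lesion replicates 1, 2 and 3. Their summed level was 6812, 8066 and 12922 CPM in these pools, against 13829.8, 11998 and 11768 CPM in lesion-free replicates 4, 5 and 6. Read counts of the family made up 0.762%, 0.899% and 1.24% of the lesion libraries, and between 1.17% and 1.19% of each lesion-free library. Of the family's counts in a pool, BGN held 42.1% to 62.0% and FMOD 21.0% to 33.1%. The sums therefore mostly follow BGN and FMOD.

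Lesion replicate 1 was also the shallowest library and stood apart in fibroblast markers. The summed level of 9 matched fibroblast markers was 609 CPM there, 1195 and 1223 CPM in the other lesion pools, and 1096 to 1374 CPM in lesion-free pools. Of the 9 fibroblast markers tested 0 were called, 7 had lower and 2 higher estimates, and the median log2 fold was -0.41. In 2 of the 9 all lesion pools were above all lesion-free pools, against 10.5% of all genes, and in 0 they were below. FBLN1 (fibulin-1) and PI16 stood at 299 and 139 CPM in lesion replicate 1, against at least 516 and 312 CPM in every other pool. BGN, DCN, PRELP and PODN were lowest in that pool as well, whereas LUM and ASPN were highest. Whether cell content or depth accounts for this was not tested. Within 9 contractile markers 8 had lower and 1 a higher estimate, with a median log2 fold of -0.76. In 6 of the 9 all lesion pools were below all lesion-free pools, against 8.97% of all genes, and in 0 they were above. Of these markers 0 were called higher and 2 lower, against 0.968% and 0.0771% of all genes. The 2 were CNN1 (calponin) and DES (desmin), at 2.57-fold and 2.55-fold lower. Both calls were lost when lesion replicate 1, or lesion-free replicate 5 or 6, was left out (limma adjusted p from 0.0981 to 0.285). Of 9 tested macrophage markers 8 were called higher, with MPEG1, ITGB2 and C1QC at 8.47-fold, 11.6-fold and 8.13-fold. CD163, a further macrophage marker, was at or under 0.711 CPM in every pool. Of 6 endothelial markers 0 were called, though all 6 had higher estimates, with a median log2 fold of 0.67. In 2 of the 6 all lesion pools were above all lesion-free pools, against 10.5% of all genes, and in 0 they were below. PECAM1 stood at 292 ± 37.2 against 171 ± 16.2 CPM and ERG at 152 ± 62.5 against 129.9 ± 24.8 CPM (SD, n = 3 each). The 2 matched adipocyte markers were near 0, PLIN1 at up to 7.66 CPM and LEP without a count in any pool.

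Several of these genes lie side by side in the pig genome, in the order of RefSeq's Sscrofa11.1 annotation. DCN is followed by LUM and then KERA, FMOD by PRELP and then OPTC, and OGN by OMD, ASPN and then ECM2. The last group lies within the span of CENPP, and whether counting used the strand is not stated. CENPP itself had at most 21 counts in any pool, against at least 454 for OGN, OMD and ASPN.

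Ratios of 2 member genes were taken within each pool, which removes library scaling. LUM and DCN, PRELP and FMOD, and OMD and ASPN are neighbours, OGN and ASPN lie on either side of OMD, and BGN and DCN lie on different chromosomes. The ratio of LUM to DCN counts was 0.714, 0.252 and 0.275 in lesion replicates 1, 2 and 3, and 0.0930, 0.156 and 0.157 in lesion-free replicates 4, 5 and 6. All lesion pools were above all lesion-free pools. The mean ratio, on the log2 scale, was 2.79-fold higher in lesion pools, a log2 difference of 1.48. The exact two-sided permutation p was 0.1, the smallest that 3 pools against 3 can give. This ratio was chosen after the values were seen, and it combines the genes with the clearest opposite differences. Without lesion replicate 1 its log2 difference was 1.00.

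The other ratios overlapped between the groups. BGN to DCN, the planned comparison, was 5.09, 5.87 and 12.2 in lesion pools and 6.26, 7.89 and 8.15 in lesion-free pools. Its log2 difference was -0.05 (exact two-sided permutation p = 0.9), although BGN and DCN were each estimated lower. PRELP to FMOD had a log2 difference of -0.09 (exact permutation p = 0.7), OGN to ASPN of -0.02 (exact permutation p = 1) and OMD to ASPN of 0.40 (exact permutation p = 0.3). Over these 5 ratios no p was below 0.1, and none would be after adjustment.

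**Figure D3:**
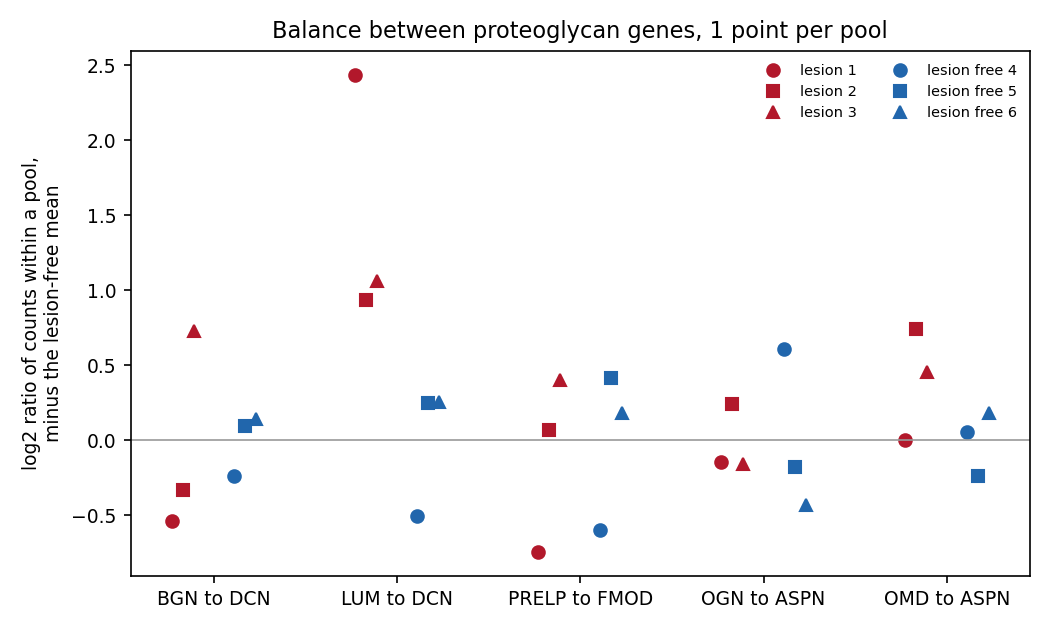
Log2 ratio of the counts of 2 genes within a pool, minus the lesion-free mean of that ratio (y axis), for 5 pairs (x axis), with lesion pools in red and lesion-free pools in blue. LUM to DCN is the pair in which the groups are apart, and lesion replicate 1 is the farthest point.

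The isoform table split BGN into 5 annotated isoforms, whose counts added up to the gene count in every pool. Each of the other 8 members had 1 isoform. BGN-201 held most of the counts, at 87.4%, 80.5% and 77.8% of BGN in lesion replicates 1, 2 and 3 and 78.5%, 69.3% and 75.5% in lesion-free replicates 4, 5 and 6. BGN-001 held between 7.82% and 20.6% in every pool. This was most of the rest except in lesion-free replicate 4, where BGN-001 held 7.82% and BGN-002 13.6%. BGN-003 and BGN-004 were minor, each at most 0.233%. How reads were divided among isoforms that share sequence is not stated, so these shares are uncertain.

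BGN-002 was the isoform whose groups of pools did not overlap. It had 0, 155 and 1480 counts in lesion replicates 1, 2 and 3, and 10622, 5815 and 2592 counts in lesion-free replicates 4, 5 and 6. As a share of BGN this was 0%, 0.321% and 1.69% in lesion pools, where 3 counts in lesion replicate 1 would be 0.0201%. In lesion-free pools the share was 13.6%, 10.1% and 4.14%. All lesion pools were below all lesion-free pools, as in 8.57% of the 12666 isoforms tested. Levels averaged 49.6 ± 74.3 against 702 ± 441 CPM (SD, n = 3 each). The log2 fold of -5.21 (SE 1.94, limma adjusted p = 0.55) depends on the 0.5 added to a count of 0, and none of the 5 BGN isoforms was called. It ran from -8.05, without lesion replicate 3, to -3.78 when 1 pool was left out. Over all isoforms tested 0.418% were called higher and 0.0316% lower.

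A test of unequal change among the isoforms of a gene, added after these counts were seen, gave BGN an adjusted p of 0.346 (limma diffSplice over its 5 isoforms). Across 1912 genes with at least 2 tested isoforms, 0.262% passed that test. The adjusted p was between 0.169 and 0.938 when 1 pool was left out. BGN without BGN-002 stood at 2869.8, 4289 and 7871 CPM in lesion pools and at 7293, 6207 and 6102 CPM in lesion-free pools, so the groups overlapped with or without that isoform.

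**Figure D4:**
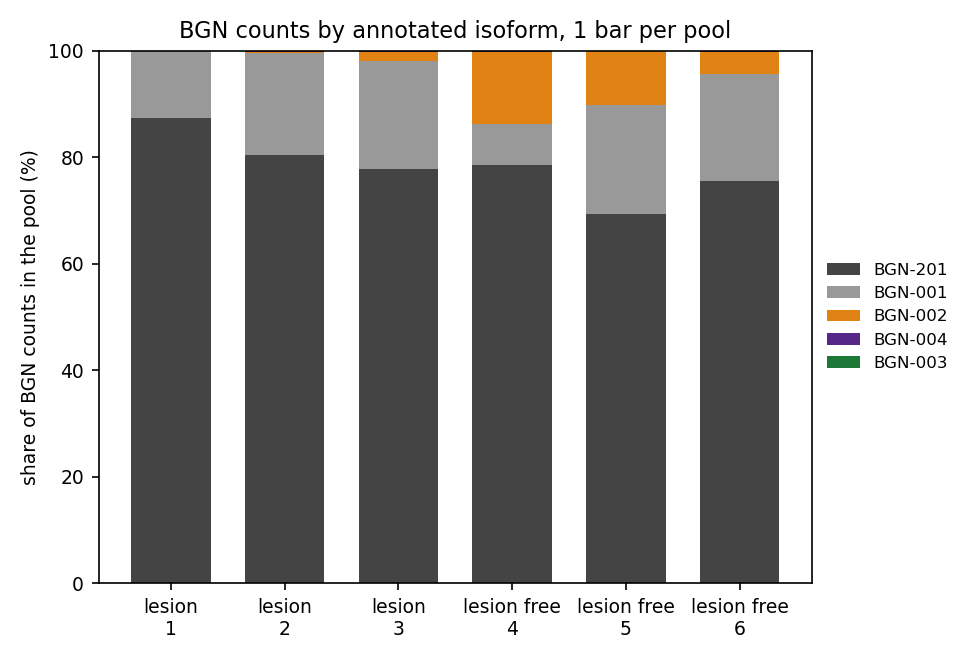
Share of BGN counts assigned to each annotated isoform (y axis, percent), 1 bar per pool. BGN-002 (orange) takes 4.14% to 13.6% of the lesion-free bars and at most 1.69% of the lesion bars, and BGN-003 and BGN-004 are too small to be seen.

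Of 8 further leucine-rich proteoglycan genes, EPYC and OPTC, known from cartilage and eye, had no count in any pool, and 6 were tested with 0 called. ECM2, the neighbour of ASPN, stood at 143 ± 44.8 against 124 ± 14.1 CPM (SD, n = 3 each), with a limma adjusted p of 0.885. CHAD, chondroadherin, a cartilage matrix protein, stood at 10.4, 45.7 and 51.4 CPM in lesion pools and 63.3, 65.2 and 83.5 CPM in lesion-free pools. All lesion pools were below all lesion-free pools, with a log2 fold of -1.08 (SE 0.45, limma adjusted p = 0.41). KERA, keratocan, which follows LUM, ran from 2.52 to 12.3 CPM over all pools. NYX, TSKU and PODNL1 had adjusted p of at least 0.856. Among cartilage markers, 1 of 3 tested was called lower, CILP2, at 6.17-fold, against 0.0771% of all genes. In all 3 every lesion pool was below every lesion-free pool, against 8.97% of all genes. Their median log2 fold was -2.07, while COL9A1 and COL10A1 had no count.

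Enzymes that build and sulfate the glycosaminoglycan chains showed no called change. Of 26 tested, 0 were called, and the median log2 fold was 0.10. CHPF, which polymerises chondroitin, stood at 149 ± 23.0 against 175 ± 18.3 CPM, and CHST3, a chondroitin sulfotransferase, at 110.2 ± 8.67 against 119 ± 21.4 CPM (SD, n = 3 each). The lesion pools were above all lesion-free pools for 6 of the 26 and below for 0, beside 10.5% and 8.97% of all genes tested.

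Collagens of the fibril, to which these proteoglycans bind, had higher estimates in 9 of 11 tested genes, with 0 called and a median log2 fold of 0.51. COL3A1 stood at 13038, 13596 and 13181 CPM in lesion pools against 6278, 8775 and 11224 CPM (log2 fold 0.64, SE 0.30, limma adjusted p = 0.467). COL1A2 stood at 5582, 5859.9 and 5853 CPM against 3688, 3633 and 4953 CPM (log2 fold 0.51, SE 0.27, limma adjusted p = 0.529). In both genes all lesion pools were above all lesion-free pools. The same held for 4 of the 11 and the reverse for 0, beside 10.5% and 8.97% of all genes tested.

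Among enzymes that process or degrade these proteoglycans, 0 of 10 tested were called and the median log2 fold was 0.30. Without adjustment 5 passed the 0.05 threshold, 3 higher and 2 lower, beside 10.6% of all genes tested. Lesion pools were above all lesion-free pools for 4 of the 10 and below for 1, beside 10.5% and 8.97% of all genes. HTRA1, a secreted serine protease that can cleave these proteoglycans, was at 795 ± 156 against 488 ± 108 CPM (SD, n = 3 each). MMP2, a gelatinase, was at 554 ± 91.6 against 596 ± 36.1 CPM (SD, n = 3 each). MMP9, the other gelatinase, named after its values were seen, stood at 267, 77.5 and 269 CPM in lesion pools and at 3.88, 0 and 2.13 CPM in lesion-free pools. It had 5207 counts over the lesion pools and 57 over the lesion-free pools, with a limma adjusted p of 0.151. MMP9 was called with an intensity trend, with no low-count filter and without lesion replicate 2 (limma adjusted p = 0.0136, 0.0361 and 0.00187). Of receptors and signalling partners, 0 of 17 tested were called, with a median log2 fold of 0.79. Estimates were higher for 13 and lower for 4. Without adjustment 9 passed the 0.05 threshold, all of them higher, beside 6.49% of all genes tested. Lesion pools were above all lesion-free pools for 7 of the 17 and below for 0, beside 10.5% and 8.97% of all genes. The named pair with the highest CPM was among the 4 with lower estimates. TGFB3, a TGF-beta ligand, stood at 154, 203 and 347 CPM in lesion pools and 151, 818 and 484 CPM in lesion-free pools. IGF1R, the receptor that decorin can engage, was at 296 ± 30.2 against 379 ± 133 CPM (SD, n = 3 each).

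Proteoglycans of other families included called genes. Of 20 tested, 2 were called higher and 0 lower, against 0.968% and 0.0771% of all genes, with a median log2 fold of 0.11. Lesion pools were above all lesion-free pools for 3 of the 20 and below for 3, beside 10.5% and 8.97% of all genes. VCAN, the large aggregating proteoglycan versican, was 3.91-fold higher, at 373, 177 and 323 CPM in lesion pools against 44.0, 79.6 and 103 CPM (limma adjusted p = 0.014). SRGN, serglycin, the proteoglycan of leukocyte granules, was 10.3-fold higher, at 240.1, 64.2 and 85.4 CPM against 21.7, 6.95 and 6.91 CPM (limma adjusted p = 0.0204). The VCAN call was lost without lesion replicate 1 (limma adjusted p = 0.0738), and the SRGN call without any 1 lesion-free pool (limma adjusted p up to 0.0978).

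**Figure D5:**
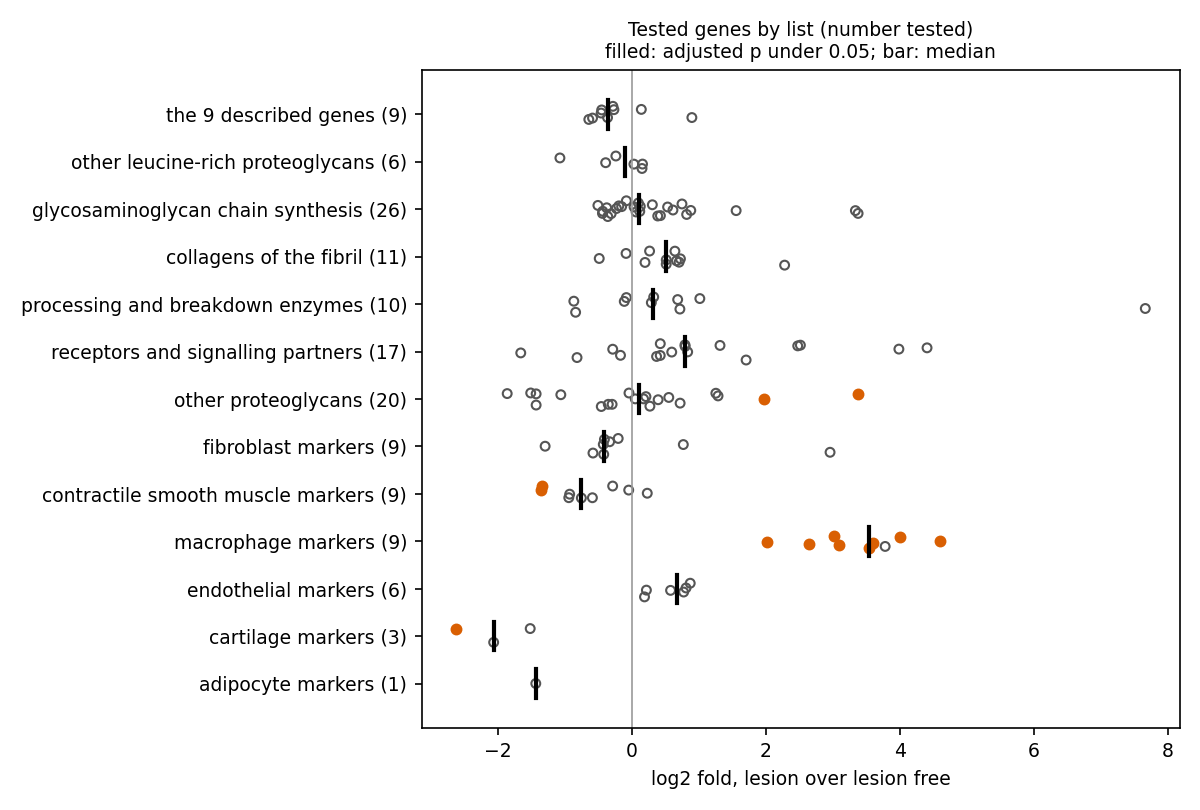
Log2 fold of lesion over lesion free (x axis) for every tested gene of each list (y axis, number tested in parentheses), with called genes filled and the list median as a bar. The 9 members are all open circles between -0.65 and 0.89, while 8 of 9 macrophage markers are filled.

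Genes with the most similar profile over the 6 pools were found by the root mean square difference of log2 CPM after centring, over 8872 named genes. For BGN these were MIF (0.107), TMEM256-PLSCR3 (0.111) and UBE2V1 (0.111). MIF, a cytokine, stood at 63.1, 83.9 and 149 CPM in lesion pools and 192, 134 and 123 CPM in lesion-free pools. Like BGN it was lowest in lesion replicate 1 and highest in lesion-free replicate 4. For LUM they were RIT1 (0.0955), USP15 (0.106) and AMACR (0.125). RIT1, a small GTPase, stood at 163, 88.6 and 72.5 CPM against 56.5, 55.6 and 50.8 CPM. The median difference over all genes compared was 0.709 for BGN and 0.769 for LUM. The likeness is a description over 6 pools.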

How the data were processed

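Whole-number counts for genes and for isoforms, 1 column a pool, were deposited by the authors. RSEM 1.3.0 and edgeR are named in the submitters' processing notes without a role. The sources used here give no aligner, genome build or annotation. Per the labels' protocols, libraries came from a stranded total RNA kit. Deposited values carry commas, which kept them from being recorded as counts, so edgeR and DESeq2 were not run. With commas removed all values were whole numbers.

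Genes were tested at 10 counts in a library of median size (1 CPM) in at least 3 pools and 15 counts in all. Libraries were scaled by TMM (trimming 30% of M and 5% of A). Lesion was compared with lesion free with limma 3.58.1 in R 4.3.3 (voom, adding 0.5 to each count, robust empirical Bayes), with Benjamini-Hochberg adjustment over all genes or isoforms tested. All p-values are two-sided. Isoform CPM used the gene table's scaled libraries. The script was tested on simulated data with changes larger than any member's estimate, so that test did not cover smaller changes. The members and lists were chosen with earlier results of these data known. The 13 lists held 184 genes, of which 156 were matched (13 by identifier) and 136 tested. From each list the text names up to 3 called genes by p, or the 2 with the highest mean CPM where none was called. Other list genes (KERA, the further relatives, MMP9, CD163 and genes with no count) and CENPP were added after their values were seen. The alternatives were other scaling, filters, weights and moderation, and each pool left out. Sequences and transcript lengths were not used here, so the CPM order of genes served only to choose which to name.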

Additional observations from a re-analysis of the deposited data

How the results depend on the processing

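None of the 9 proteoglycan genes was called, and none changed direction, in any of 12 alternatives: 6 other settings and 6 fits without 1 pool (108 values). Plain library totals shifted the median log2 fold of all genes to 0.16. LUM then stood at 1.05 and BGN at -0.46, with all member directions kept. Over the settings other than leaving out a pool, LUM ran from 0.61 to 1.05 (adjusted p 0.197 to 0.331) and over the fits without 1 pool from 0.51 to 1.096 (0.174 to 0.568). No paired analysis was possible because the 2 groups are different animals, WMS FH and WMS normal, and the labels pair no pools.

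The BGN to DCN log2 difference had no steady direction: it ran from -0.43 to 0.20 without 1 pool, at 0.20 and 0.09 without lesion replicate 1 or 2 and 0.0002 and 0.024 without lesion-free replicate 5 or 6. BGN-004 turned to -0.46 with an intensity trend and -0.026 with no low-count filter, and ran from -1.01 to 0.59 without 1 pool. BGN-001 ran from -0.97 to 0.12. None of these was called.

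Counts of called list genes moved in a few settings. With an intensity trend 1 processing enzyme (MMP9) was higher and 1 contractile gene lower. With no low-count filter 1 processing enzyme (MMP9) was higher. With ordinary empirical Bayes 1 contractile gene was lower. With sample quality weights 1 other proteoglycan (GPC1) was lower and 1 endothelial marker (PECAM1) higher. The proteoglycan gene SDC2 was called higher with library totals only, with sample quality weights and without lesion replicate 2 (limma adjusted p = 0.0362, 0.0428 and 0.0206). The macrophage marker CD86 was called higher with an intensity trend and without lesion replicate 2 (limma adjusted p = 0.0368 and 0.0424). Without 1 pool, other proteoglycans called higher ran from 1 to 3, contractile genes called lower from 0 to 2, processing enzymes called higher from 0 to 1 and cartilage markers called lower from 1 to 2. The cause was not tested. The smallest count of a member was 454, with a counting error of 4.69%, below the spread between pools.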

Other observations

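Some partners of the proteoglycans, chosen after their values were seen, had lesion pools apart from lesion-free pools without being called. Over all genes tested, lesion pools were above all lesion-free pools in 10.5% and below all of them in 8.97%. CHSY1, a chondroitin synthase, stood at 71.1, 51.9 and 52.7 CPM in lesion pools against 33.8, 28.3 and 40.3 CPM (limma adjusted p = 0.377). DSE, the epimerase that turns chondroitin into dermatan sulfate, stood at 58.8, 60.1 and 39.8 CPM against 27.9, 23.5 and 37.3 CPM (limma adjusted p = 0.368). TLR2 and TLR4, the receptors that soluble BGN can engage, were at 23.6 ± 5.99 against 9.20 ± 1.86 CPM and 29.1 ± 21.0 against 4.43 ± 2.53 CPM, each a mean ± SD of 3 pools (limma adjusted p = 0.229 and 0.171).

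PCOLCE, the enhancer of the protease BMP1 that matures procollagen, went the other way, at 128, 160.1 and 190.4 CPM in lesion pools against 384, 266 and 224 CPM (limma adjusted p = 0.257). BMP1 itself, which also removes the BGN propeptide, overlapped between groups at 44.2 ± 15.3 against 36.6 ± 11.0 CPM (SD, n = 3 each). COL14A1, a fibril-associated collagen, was steady within groups, at 588 ± 24.2 against 372 ± 33.5 CPM, means ± SD of 3 pools (limma adjusted p = 0.329).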
